A study of Sus scrofa domesticus with 30 samples.

Results

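The genes described here are 37 cell cycle and DNA replication genes of the pig, taken from a list of gene symbols and read from the messenger RNA (mRNA) of the endometrium, the lining of the uterus. Of the 37 genes, 36 had a row in the deposited table of 28224 rows, and MCM5 was not analysed here. All 36 were above the table's lowest value of 1 in each of the 15 libraries, and so all 36 were among the 16819 rows above 1 in at least 7 libraries that were tested. Roles sort them into G1/S transcription and cyclin E (3 genes), origin licensing (7), DNA synthesis and nucleotide supply (4), cyclins A and B with CDK1 and FOXM1 (5), mitotic kinases and checkpoint (5), partners of the anaphase-promoting complex (2), and spindle, kinetochore and chromosome proteins (10).

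The samples came from 15 crossbred gilts (young female pigs of Landrace, Yorkshire and Duroc genetics) on day 13 of pregnancy, with 1 poly(A)-selected library per animal from the middle of a uterine horn. The gilts had been grouped on the first day after birth by immunocrit (iCrit), a blood measure of the immunoglobulin a newborn has absorbed from colostrum; 7 were low iCrit and 8 were high iCrit. The study asked whether little lactocrine (milk-borne) signalling in the newborn is followed by differences in the adult endometrium. All gilts were weaned, fed, mated by artificial insemination and killed in the same way, and had shown at least 1 normal oestrous cycle, so that the iCrit group is the labelled difference between them. The labels give no litter, sire, number of conceptuses or sequencing batch, and the colostrum intake itself was not set by the experiment.

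A dividing cell commits to DNA replication when E2F factors and cyclin E switch on the genes for copying DNA. Before any DNA is copied, the MCM helicase is loaded at origins with CDC6 and CDT1. The cell then copies its DNA and enters mitosis under CDK1 with cyclins A and B, with FOXM1 driving the mitotic genes. Most of these transcripts are abundant only in cells that are cycling, which makes MKI67 and its partners common markers of proliferation. In early pregnancy the luminal and glandular epithelium of the uterus grows under ovarian hormones. In whole tissue, fewer cycling cells and less RNA per cycling cell cannot be told apart.

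Values are the authors' normalized expression values, linear and with no stated unit, here called units. The smallest repeated step of each library, taken as the worth of 1 read pair, gave estimated depths of 11.8 to 31.7 M (1e6) read pairs. The member values rested on between 12 (CDC6, FOXM1 and BUB1) and 2579 (MCM7) estimated read pairs in a library. All 10 epithelial markers and all 8 stromal markers were above 1 in every library. Among all libraries, low iCrit replicate 2 had the lowest median rank correlation with the others (0.956), and it was also the lowest library for 13 of the 36 genes. The share of all rows for which it was lowest was not counted. In earlier work on these data, low iCrit replicate 2 and high iCrit replicates 7 and 8 were set apart, and counts are therefore also given without those 3.

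No gene of the set was called different between the iCrit groups. The log2 difference was smaller than the within-group SD for 35 of the 36 genes, though nearly equal to it for CDC6 (0.41 against 0.42), and larger for MCM7 (-0.29 against 0.16). With limma on log2(value + 1) and Benjamini-Hochberg adjustment, 0 of the 36 genes were called at an adjusted p under 0.05, as were 0 of the 16819 rows (0% called). At an unadjusted p under 0.05 there was 1 gene, MCM7, lower in low iCrit, where 4.43% of all rows were lower at that level and 2.71% were higher. Across all rows 455 were higher and 745 lower at that level. Quantile normalization made this 600 higher and 603 lower, and with median centring the numbers were 569 and 603. The groups' ranges overlapped for all 36 genes. Neither this overlap nor the comparison with the within-group SD was counted over all rows.

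The mean log2 value was lower in low iCrit for 27 of the 36 genes, where 51.7% of all rows were lower. The median difference of the 36 genes was -0.14 on the log2 scale, and that of all rows was -0.01. This direction depended on single animals. Without low iCrit replicate 2 the count was 16 of 36 with a median of 0.03, without low iCrit replicate 7 it was 17 with a median of 0.01, and without the 3 libraries set apart it was 15 with a median of 0.06. With estimated read pairs as a covariate it was 19, with a median of -0.06.

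**Figure D1:**
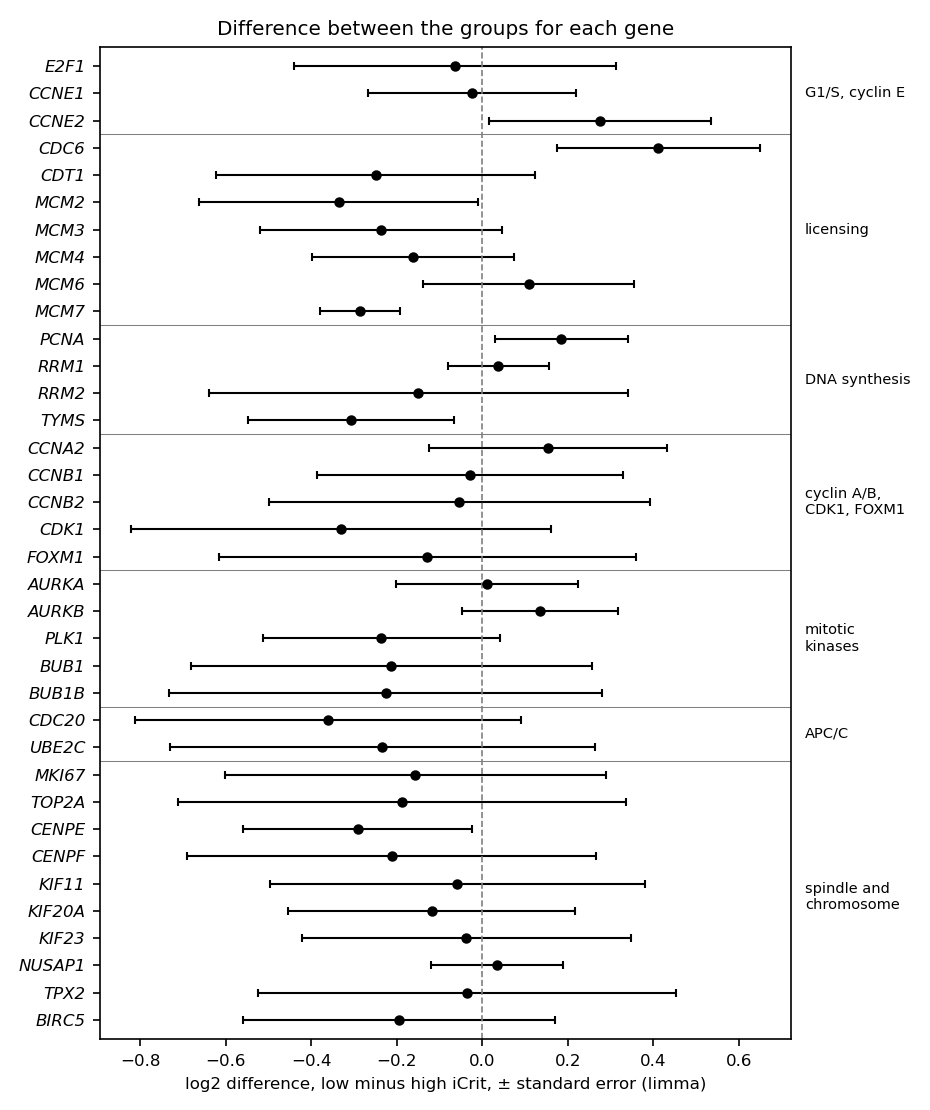
The log2 difference of each of the 36 genes, low minus high iCrit, is plotted with its limma standard error, and the genes are ordered by role. Most points lie left of 0 with error bars that cross it, and MCM7 (-0.29 ± 0.09) has the shortest bar.

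What set the genes apart from most rows was how far they varied between animals of the same group. Over the 36 genes the median within-group SD was 0.72 on the log2 scale, against 0.40 for all tested rows. It was 0.34 for the 10370 rows with a mean between the lowest and highest of the 36 genes (61.0 and 3101 units). Those rows were not matched to the genes level by level. The highest library exceeded the lowest by more than 5-fold in 17 of the genes, and by as much as 10.7-fold for FOXM1. How many of all rows exceeded 5-fold was not counted. The same animals were high or low for most of them. Low iCrit replicate 1 was the highest of the 15 libraries for 15 genes, low iCrit replicate 6 for 11 and high iCrit replicate 7 for 5. Lowest were low iCrit replicate 2 for 13 genes, low iCrit replicate 7 for 7, high iCrit replicate 3 for 5 and high iCrit replicate 8 for 4. How often each library was the highest or lowest over all rows was not counted.

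Averaged over the 36 genes, the deviation from each gene's mean was 0.98 (log2) in low iCrit replicate 1 and 0.87 in replicate 6. It was -0.78 in low iCrit replicate 2, -0.69 in replicate 7 and -0.52 in replicate 3, while replicates 4 and 5 lay at -0.07 and -0.16. The high iCrit animals ran from -0.55 in replicate 8 and -0.52 in replicate 3 up to 0.73 in replicate 7. The highest and the lowest mean levels of these proliferation genes were thus both in low iCrit animals, with the high iCrit animals between them.

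**Figure D2:**
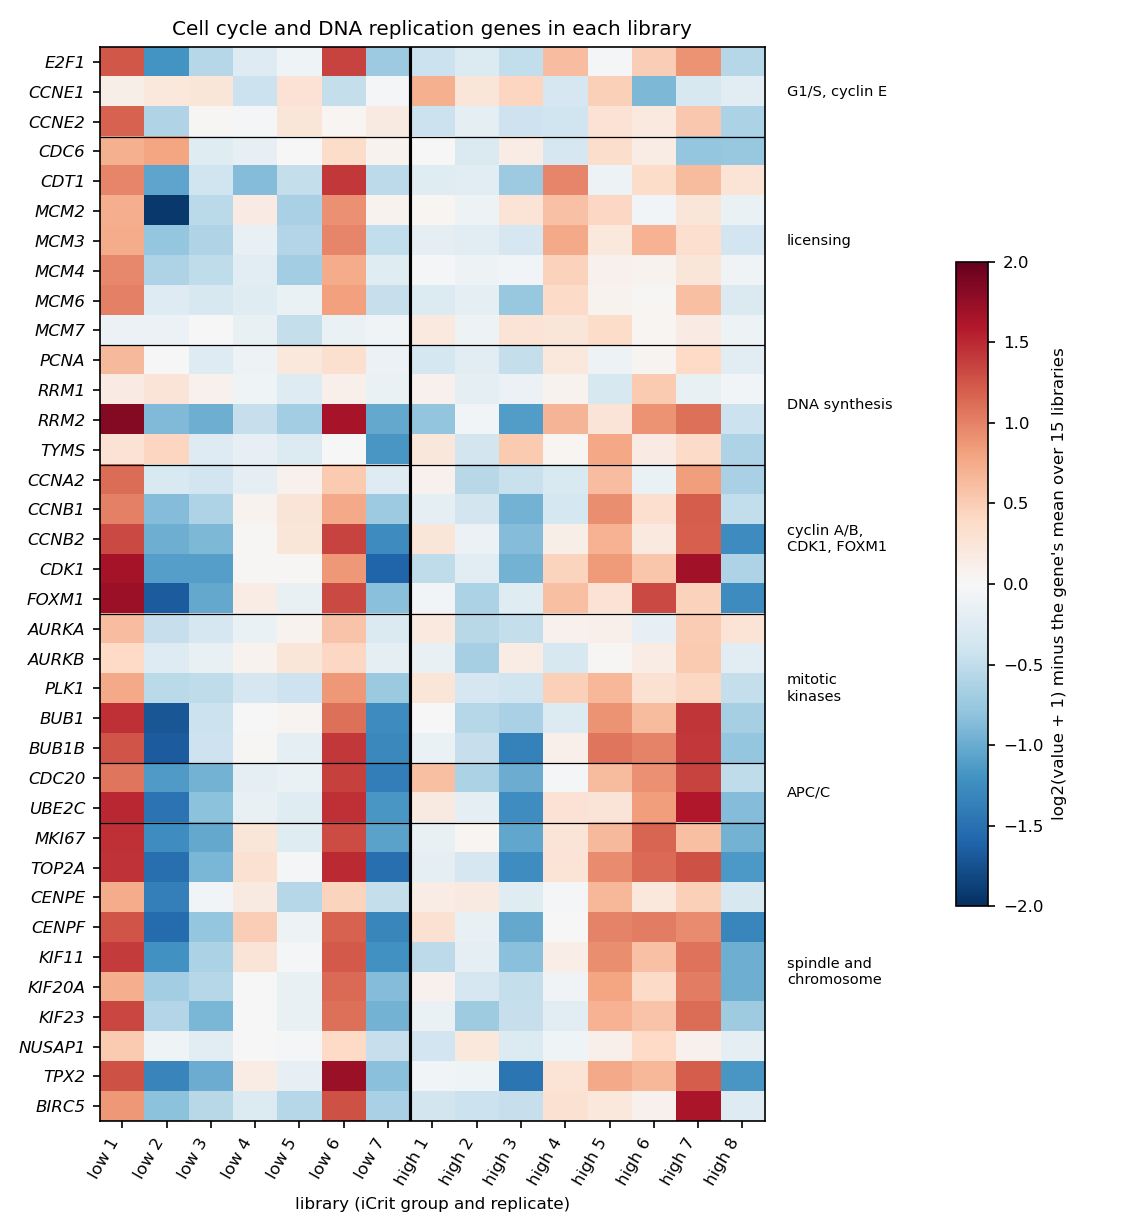
Each cell shows log2(value + 1) of a gene in a library minus that gene's mean over the 15 libraries, with genes in rows by role and libraries in columns, low iCrit left of the line. The columns of low iCrit replicates 1 and 6 and high iCrit replicate 7 are red for most genes, those of low iCrit replicates 2, 3 and 7 and high iCrit replicates 3 and 8 are blue, and the rows of CCNE1, CDC6, MCM7 and RRM1 do not follow them.

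The SD of log2 values was larger in low than in high iCrit for 31 of the 36 genes (86.1%), and larger in low iCrit for 47.7% of all rows. Its median over the genes was 0.79 in low and 0.56 in high iCrit. Over all rows the medians were 0.38 and 0.38. For MCM2 the SDs were 0.97 in low and 0.26 in high iCrit, and for MCM4 they were 0.67 and 0.19. CCNE1 went the other way, with 0.32 and 0.54. The count was between 27 and 32 when any 1 animal was left out, and 32 without the 3 libraries set apart. Because the genes share the same 15 animals they are not independent, and the difference in spread between the groups was not tested.

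**Figure D3:**
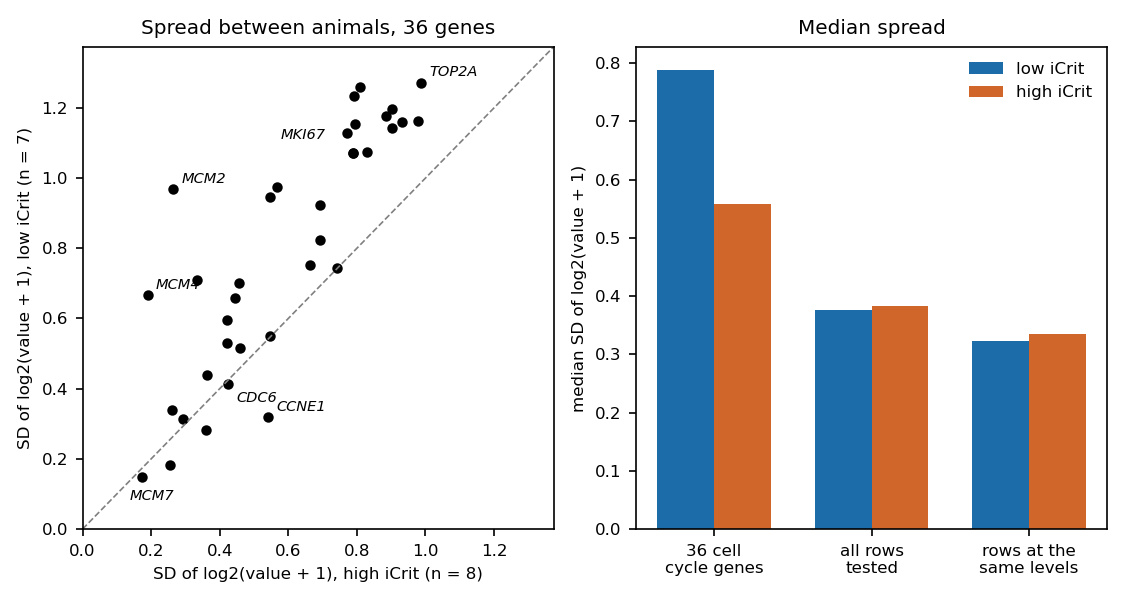
Left, the SD of log2(value + 1) between low iCrit animals (n = 7) is plotted against that between high iCrit animals (n = 8) for each of the 36 genes, with equal SDs on the dashed line. Right, bars give the median SD in each group for the 36 genes (0.79 and 0.56) and for all 16819 rows. The last pair of bars, named the same levels, is for the 10370 rows with means within the genes' range. Only the cell cycle genes have a taller bar in low iCrit.

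The G1/S genes differed from each other in their pattern. E2F1, the transcription factor that switches on replication genes, ranged from 77.9 to 461 units in low iCrit with a median of 150, and from 121 to 338 in high iCrit with a median of 163. Low iCrit replicates 6 and 1 were highest and low iCrit replicate 2 lowest, so the low group enclosed the high group. Its means were 216 ± 158 in low and 197 ± 81.6 in high iCrit (SD, n = 7 and 8). On the log2 scale the difference was -0.06 with an SE of 0.38, and errors after ± are SEs for all log2 differences that follow (limma adjusted p = 0.980). CCNE1, the cyclin E1 partner of CDK2 at the start of S phase, ranged from 82.9 to 142 units with a median of 125 in low iCrit and from 61.6 to 191 with a median of 119 in high iCrit. Here high iCrit replicate 1 was the highest and high iCrit replicate 6 the lowest, and the high group enclosed the low one (log2 difference -0.02 ± 0.24, limma adjusted p = 0.987). CCNE2, the second E-type cyclin, lay between 37.6 and 131 units in low iCrit (median 59.1) and between 36.8 and 84.5 in high iCrit (median 47.1). Low iCrit replicate 1 alone was above 100 units for it, and the groups overlapped (0.28 ± 0.26, limma adjusted p = 0.861). CCNE2 shares 1153 bp with INTS8 on the other strand, a gene at 1343 units on average, and the library protocol names no step that marks strand, so some of its reads cannot be told from those of INTS8.

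Among the licensing genes, 5 of 7 had a lower mean in low iCrit. MCM7, a subunit of the replicative helicase on chromosome 3 from 8005890 to 8014047, had 2211 units in the lowest, 2823 in the median and 3041 in the highest low iCrit animal, and 2861, 3467 and 3969 in the high iCrit animals. Low iCrit replicate 5 was the lowest, 7 of 7 low iCrit animals were under the high iCrit mean, and the ranges overlapped between 2861 and 3041. Its mean was 2773 ± 265 in low and 3387 ± 401 in high iCrit (SD, n = 7 and 8). The log2 difference was -0.29 ± 0.09 (limma unadjusted p = 0.00748, adjusted p = 0.672), and an exact two-sided permutation over all splits of the animals gave an unadjusted p of 0.00466. It was the only one of the 36 genes at an unadjusted exact p under 0.05, and that test was not run over all rows. MCM7 was also the least variable of the genes, with a within-group SD of 0.16 (log2), and it overlaps AP4M1 (1535 units on average) by 347 bp on the other strand.

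CDC6, which loads the helicase at origins, had the largest difference in the other direction. It lay at 54.1, 67.5 and 112 units in the lowest, median and highest low iCrit animals and at 36.9, 58.0 and 81.9 in the high iCrit animals. Low iCrit replicates 2 and 1 were highest and high iCrit replicates 7 and 8 lowest, with overlap between the groups. Its log2 difference of 0.41 ± 0.24 did not pass (limma adjusted p = 0.750, exact permutation p = 0.0822, unadjusted). MCM2, another helicase subunit, ran from 116 to 838 units with a median of 468 in low iCrit and from 405 to 668 with a median of 491 in high iCrit. Its lowest value was in low iCrit replicate 2 and its highest in low iCrit replicate 6, so that the high group lay inside the low one (-0.34 ± 0.33, limma adjusted p = 0.864). Log2 differences of the other licensing genes were -0.25 for CDT1, which loads the helicase with CDC6, and -0.24, -0.16 and 0.11 for the helicase subunits MCM3, MCM4 and MCM6.

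For DNA synthesis, PCNA, the sliding clamp of the DNA polymerases, ran from 719 to 1355 units in low iCrit (median 858) and from 622 to 1140 in high iCrit (median 773). Low iCrit replicate 1 was highest and high iCrit replicate 3 lowest, with broad overlap (0.18 ± 0.16, limma adjusted p = 0.840). TYMS, thymidylate synthase, which makes the DNA precursor dTMP, ran from 176 to 532 units (median 351) in low and from 257 to 680 (median 453) in high iCrit. Low iCrit replicate 7 was the lowest and high iCrit replicate 5 the highest (-0.31 ± 0.24, limma adjusted p = 0.830). The 2 subunits of ribonucleotide reductase, which makes deoxyribonucleotides, behaved unlike each other. RRM2, the subunit made in S phase, ran from 118 to 861 units with a median of 148 in low iCrit and from 111 to 519 with a median of 261 in high iCrit. In low iCrit 5 animals were at 174 units or less and replicates 1 and 6 at 861 and 760, whereas the high iCrit animals showed no such gap (-0.15 ± 0.49, limma adjusted p = 0.965). RRM1, the larger and steadier subunit, ran only from 2424 to 3476 units in low iCrit (median 3076) and from 2324 to 4147 in high iCrit (median 2737), the smallest ratio of highest to lowest library among the 36 genes (1.78-fold). The groups overlapped throughout for it (0.04 ± 0.12, limma adjusted p = 0.965).

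The cyclins that drive mitosis and their kinase moved over wide ranges within both groups. CDK1, the kinase that starts mitosis, ran from 33.7 to 333 units in low iCrit (median 106) and from 53.7 to 338 in high iCrit (median 116). Its highest values were in high iCrit replicate 7 and low iCrit replicate 1 and its lowest in low iCrit replicate 7 (-0.33 ± 0.49, limma adjusted p = 0.917). CCNB1, cyclin B1, which activates CDK1, ran from 114 to 420 units (median 218) and from 107 to 479 (median 172) in low and high iCrit. Again high iCrit replicate 7 and low iCrit replicate 1 were the highest, and the ranges were almost the same (-0.03 ± 0.36, limma adjusted p = 0.991). FOXM1, the transcription factor of the G2 and M phase genes, ran from 25.2 to 270 units in low iCrit (median 74.1) and from 33.9 to 205 in high iCrit (median 89.4). Low iCrit replicate 1 was highest and low iCrit replicate 2 lowest, enclosing the high group (-0.13 ± 0.49, limma adjusted p = 0.971). CCNA2, cyclin A2, and CCNB2, cyclin B2, had log2 differences of 0.15 and -0.05.

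Of the mitotic kinases, AURKB, the kinase of the chromosomal passenger complex, was the least spread, from 195 to 311 units in low iCrit (median 245) and from 146 to 335 in high iCrit (median 224). The high group enclosed the low one (0.13 ± 0.18, limma adjusted p = 0.908). BUB1B, which encodes the spindle checkpoint protein BUBR1, was one of the most spread, from 42.1 to 362 units (median 119) in low iCrit and from 51.9 to 360 (median 134) in high iCrit. Low iCrit replicate 6 and high iCrit replicate 7 were highest at nearly the same value, and low iCrit replicate 2 lowest (-0.23 ± 0.51, limma adjusted p = 0.953). AURKA and PLK1, kinases of the spindle poles and of mitotic entry, and BUB1, a kinase of the checkpoint, had log2 differences of 0.01, -0.24 and -0.21. UBE2C, the ubiquitin-conjugating enzyme of the anaphase-promoting complex, ran from 54.7 to 436 units (median 130) in low and from 64.1 to 467 (median 179) in high iCrit. High iCrit replicate 7 and low iCrit replicates 1 and 6 were highest, and the groups overlapped over almost their whole range (-0.23 ± 0.50, limma adjusted p = 0.949). CDC20, the activator of that complex, had the largest negative difference of the set at -0.36.

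MKI67, which coats mitotic chromosomes as the antigen Ki-67 (chromosome 14, 137266622 to 137296312), ran from 241 to 1571 units in low iCrit (median 484) and from 278 to 1286 in high iCrit (median 635). Low iCrit replicates 1 and 6 had 1571 and 1415 units, while replicates 2, 7 and 3 had 241, 272 and 280, so that few low iCrit animals were near their own mean. Means were 705 ± 561 in low and 677 ± 337 in high iCrit (SD, n = 7 and 8), and the log2 difference was -0.16 ± 0.45 (limma adjusted p = 0.961). The arithmetic mean was higher and the mean log2 value lower in low iCrit. TOP2A, topoisomerase II alpha, which untangles replicated DNA (chromosome 12, 22001300 to 22028452), ran from 233 to 1874 units (median 661) and from 282 to 1626 (median 695). Low iCrit replicates 6 and 1 were highest and low iCrit replicates 2 and 7 lowest, the same animals as for MKI67 (-0.19 ± 0.52, limma adjusted p = 0.961).

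CENPE, a kinesin of the kinetochore, ran from 103 to 448 units (median 258) in low iCrit and from 214 to 424 (median 299) in high iCrit. Low iCrit replicate 2 was well below the other animals, and the high group lay inside the low one (-0.29 ± 0.27, limma adjusted p = 0.855). NUSAP1, a spindle-associated protein, was steadier than the rest of its role, from 639 to 1266 units (median 869) in low and from 680 to 1161 (median 882) in high iCrit (0.03 ± 0.15, limma adjusted p = 0.977). Its row shares 17581 bp with OIP5 on the other strand, which averaged 7422 units, or 8.24 times NUSAP1, and reads of these genes cannot be told apart without strand. The other 6 genes of this role, CENPF, KIF11, KIF20A, KIF23, TPX2 and BIRC5, are a kinetochore protein, spindle kinesins, a spindle assembly factor and survivin. Their log2 differences lay between -0.21 and -0.04.

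**Figure D4:**
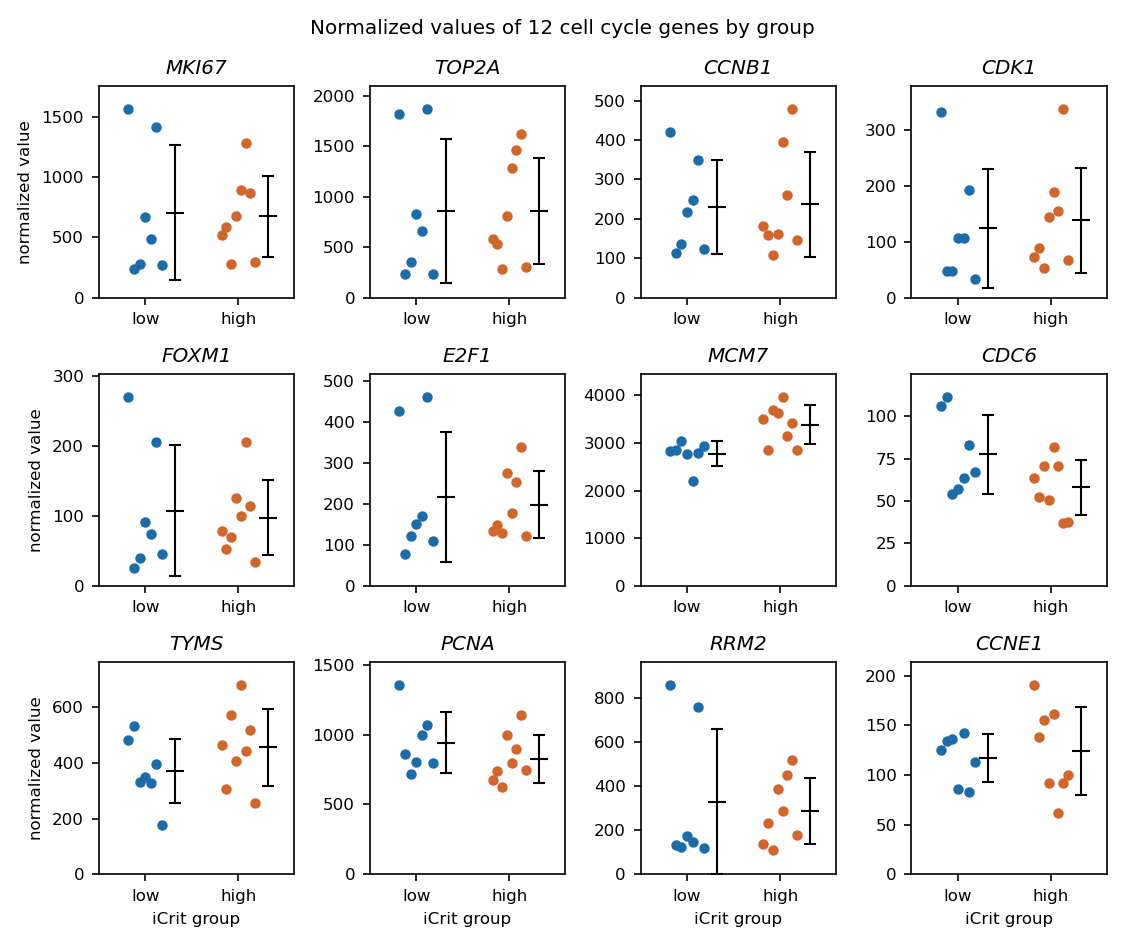
Points are the normalized values of single animals for 12 of the genes in low (n = 7) and high (n = 8) iCrit, on linear axes that start at 0, with the group mean and SD at the right of each group. The groups overlap in every panel; in low iCrit MKI67, TOP2A, E2F1 and RRM2 split into a pair of high animals and a cluster of low ones.

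Across the 15 animals most of the genes followed MKI67. Of the other 35 genes, 25 correlated with MKI67 (Pearson, 100000 permutations, two-sided, Benjamini-Hochberg adjusted p under 0.05 among the 16818 other rows), all 25 positively, where 3.43% of all rows passed positively and 2.54% negatively. By Spearman's rho it was 24 of 35. The median r was 0.87 over all animals, 0.94 within low and 0.77 within high iCrit, and 0.84 without low iCrit replicates 1 and 2, the animals farthest from the MKI67 median. Whether r differs between the groups was not tested. The count was 21 without low iCrit replicate 2 or 6 or without the 3 libraries set apart. Since the list was chosen as genes of 1 process, this is a description of how closely they ran together.

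TOP2A was closest to MKI67, with r = 0.97 and rho = 0.96 (permutation p = 1e-05 and 1e-05, the smallest that 100000 permutations can give; adjusted p = 0.00343 and 0.00285) and r = 0.97 without the 2 farthest animals. CENPF and TPX2 had r = 0.96, KIF11 0.95 and UBE2C 0.94. By role, the genes that passed were 9 of 9 in the spindle and chromosome group, 5 of 5 of the mitotic cyclins, CDK1 and FOXM1, 2 of 2 partners of the anaphase-promoting complex, 3 of 5 mitotic kinases, 4 of 7 licensing genes, 1 of 4 in DNA synthesis and 1 of 3 in G1/S. The genes of mitosis were thus the closest to MKI67, and those of S phase entry less so; the roles themselves were not compared by a test.

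The 10 genes that did not pass were CCNE1, CCNE2, CDC6, MCM2, MCM7, PCNA, RRM1, TYMS, AURKA and AURKB. CCNE1 was the only gene with a negative r (r = -0.44, rho = -0.40, adjusted permutation p = 0.315 and 0.378), and r was negative within both groups (-0.51 and -0.47). For MCM7 r was 0.06, for CDC6 0.18, for RRM1 0.22 and for TYMS 0.37. AURKA had r = 0.96 within low and 0.20 within high iCrit, and AURKB 0.94 and 0.26. AURKA shares 234 bp with CSTF1 on the other strand, which averaged 4.49 times its value. CCNE2 shares 1153 bp with INTS8 and MCM7 347 bp with AP4M1, which averaged 22.0 and 0.49 times their values. Among the genes that passed, NUSAP1 shares 17581 bp with OIP5, which averaged 8.24 times its value. CCNA2 shares 619 bp with EXOSC9 on the other strand, which averaged 6.77 times its value. KIF20A shares 1811 bp with CDC23 and PLK1 59 bp with ERN2, which averaged 0.69 and 0.24 times their values. The part of these overlaps in r was not tested. MCM7, the gene with the smallest p between the groups, was among those that followed MKI67 least.

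**Figure D5:**
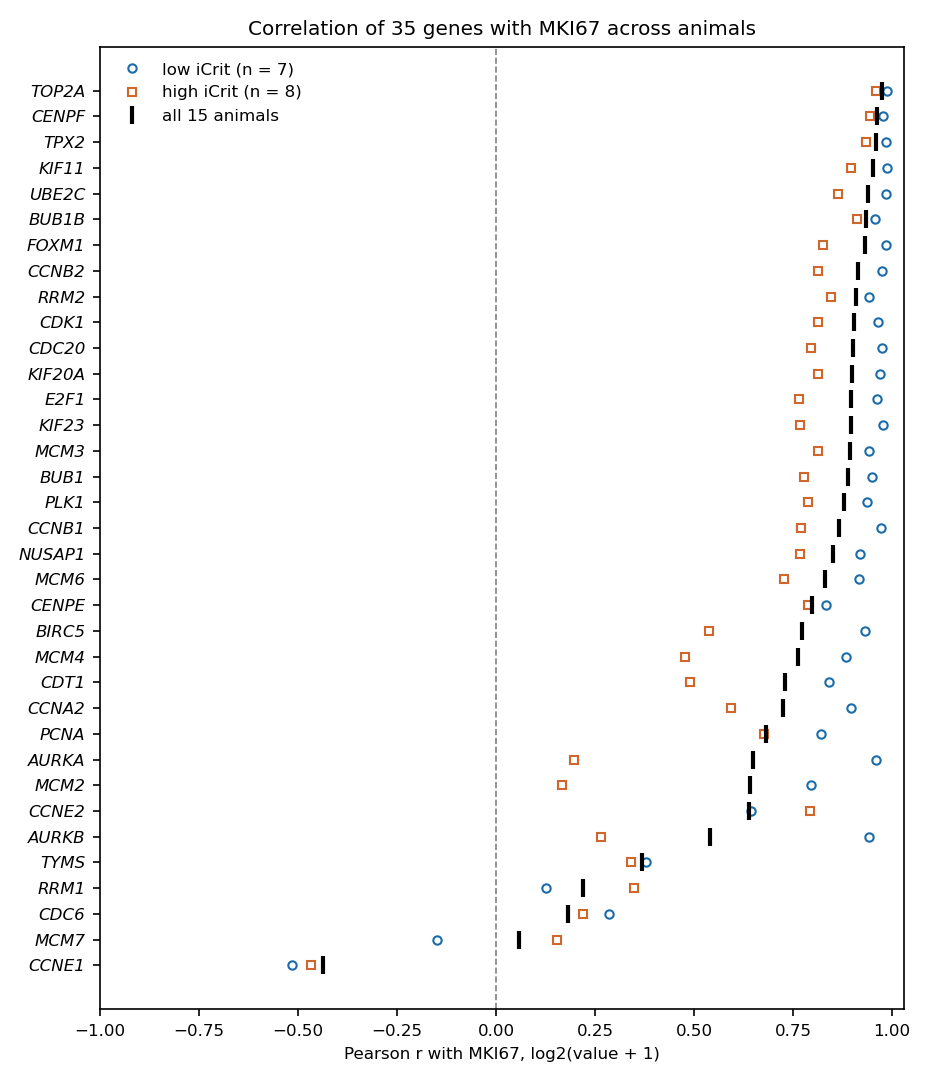
Pearson r of log2(value + 1) with MKI67 is plotted for 35 genes, over all 15 animals (black ticks), within low iCrit (blue circles, n = 7) and within high iCrit (orange squares, n = 8). The mitotic genes at the top lie above 0.8 over all animals, RRM1, CDC6 and MCM7 lie between 0.06 and 0.22, and CCNE1 is negative.

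Over all 630 pairs of the 36 genes the median r was 0.72, and 51 pairs (8.10%) had a negative r. TOP2A and CDC6 lie 72.8 kb apart on chromosome 12, and their r across animals was 0.09.

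Markers of other cell types were set beside MKI67 in the same way, as 12 list means and the estimated read pairs, with p-values adjusted over these 13. Epithelial markers had r = 0.75 and rho = 0.76 with MKI67 (permutation p = 0.00095 and 0.00142, adjusted p = 0.00689 and 0.00923), with r = 0.69 without the 2 farthest animals. All 10 epithelial genes were above 1 in every library, and their summed level ran from 99909 to 178386 units in low and from 129012 to 189128 in high iCrit. Neutrophil markers had r = 0.72 and rho = 0.84 (permutation p = 0.00106 and 0.00023, adjusted p = 0.00689 and 0.00299), with r = 0.69 without the 2 farthest animals. For 6 of their 7 genes all libraries were above 1, CXCR2 being above it in 9, and the sum ran from 988 units in low iCrit to 56700, and from 14496 to 79082 in high iCrit, lowest in low iCrit replicate 2. S100A9, which epithelium can also make, had the highest median of the 7 (29739.6 units). S100A8, S100A12 and MMP8 had medians of 5438, 3827 and 986 units, and CSF3R, ELANE and CXCR2 of 129, 23.8 and 1.10. The r of single genes of this list with MKI67 is not given. Smooth muscle markers, 7 of 7 above 1 in every library, had r = 0.65 and rho = 0.60 (permutation p = 0.00906 and 0.0206, adjusted p = 0.0393 and 0.0829), r = 0.74 without the 2 farthest animals, and sums of 8166 to 35962 and 8300 to 21179 units. The part of these cell types in the variation of the cell cycle genes was not tested. Estimated read pairs had r = -0.12 with MKI67 (rho = -0.07, adjusted permutation p = 0.722 and 0.857). No adjusted p passed for the lists of glands, stroma, endometrium identity, T and NK cells, B and plasma cells, macrophages, endothelium, erythroid cells or conceptus trophoblast (0.0578 or higher by Pearson). The sign for the gland list was opposite to that of the epithelial list, with r = -0.44 (adjusted permutation p = 0.197). Its r was -0.53 within low and -0.49 within high iCrit.

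The wider cell cycle pathway was taken as 154 further genes in 8 lists, of which 150 had a row and 149 were tested. None passed between the groups (limma, adjusted p), and 14 had an unadjusted p under 0.05, 7 higher and 7 lower in low iCrit, where 2.71% and 4.43% of all rows were. That count was 9 (6 higher, 3 lower) without high iCrit replicate 1 and 9 (5 higher, 4 lower) without the 3 libraries set apart, and the lower genes were also 4 without high iCrit replicate 4 or 7. The mean was lower for 90 and higher for 59, with a median difference of -0.05, where 51.7% of all rows were lower. This direction turned without the 3 libraries set apart (69 lower, 80 higher, median 0.03) and was lost without low iCrit replicate 2 (73 lower, 76 higher, median 0.0032). With all animals, genes with a lower mean in low iCrit were 31 of 42 other mitotic genes, 20 of 26 polymerase, clamp loader and ligase genes, 12 of 16 subunits and adaptors of the anaphase-promoting complex, 6 of 7 CDK inhibitors, 8 of 18 RB, E2F and MYB-MuvB factors, 7 of 19 origin recognition and replisome genes, 4 of 14 checkpoint and CDC25 genes, and 2 of 7 D cyclins and G1 kinases.

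The smallest unadjusted p of these genes belonged to ANAPC15, which encodes a component of the anaphase-promoting complex, with 1203, 1280 and 1456 units in the lowest, median and highest low iCrit animals and 1352, 1866 and 2466 in the high iCrit animals. The low group was narrow and overlapped the lower end of the high group (-0.49 ± 0.11, limma unadjusted p = 0.000484, adjusted p = 0.672). The D cyclins, which couple growth signals to CDK4 and CDK6, did not share a direction. CCND3 ran from 2587 to 4262 units (median 3256) in low and from 3646 to 5349.8 (median 4265) in high iCrit, with a log2 difference of -0.38 ± 0.11 (limma adjusted p = 0.672). CCND2 ran from 31.3 to 80.0 units (median 58.0) in low and from 9.22 to 69.0 (median 26.4) in high iCrit, 1.04 ± 0.34 higher on the log2 scale (limma adjusted p = 0.672). CCND1 ran from 1699.8 to 3013 units (median 2342) and from 1003 to 2794 (median 1649), with a difference of 0.41 ± 0.20 (limma adjusted p = 0.704). All 3 D cyclins overlapped between the groups.

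CDK4, the kinase partner of the D cyclins, averaged 2080.4 ± 264 units in low and 2385 ± 335 in high iCrit (SD, n = 7 and 8; log2 difference -0.19 ± 0.10, limma adjusted p = 0.737). CDK6 was listed at 1 in all 15 libraries and was not tested. RB1, the retinoblastoma protein that holds E2F factors in check, averaged 1525 ± 215 in low and 1238 ± 131 in high iCrit (0.30 ± 0.10, limma adjusted p = 0.672). The inhibitors CDKN1A (p21) and CDKN1B (p27) differed by -0.13 ± 0.30 and -0.11 ± 0.17 (limma adjusted p = 0.953 and 0.922). CDC27, a core subunit of the anaphase-promoting complex, was 0.28 ± 0.10 higher and POLA2, a subunit of the primase polymerase, was lower, with a difference of -0.31 ± 0.12, in low iCrit (limma adjusted p = 0.672 for both).

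With MKI67, 46 of these 149 genes correlated at an adjusted permutation p under 0.05, 41 positively and 5 negatively, where 3.43% and 2.54% of all rows did. Other mitotic genes supplied 28, all positive, of 42, led by CENPA, the centromeric histone (r = 0.97), and RACGAP1, which acts in cytokinesis (0.95). The polymerase, clamp loader and ligase list supplied only 3 of 26, all positive, and its median r was 0.27. They were UHRF1 (0.92), TK1, thymidine kinase (0.89), and POLE, the leading-strand polymerase (0.87). Origin recognition and replisome genes supplied 5 of 19, 3 of them positive, CLSPN, claspin (0.89), among them, with a median r of -0.09. RB, E2F and MYB-MuvB factors supplied 3 of 18, of which E2F8 (0.87) and E2F7 (0.83) were the 2 positive, with a median r of -0.0034. CDKN2C, the CDK inhibitor p18, passed with r = 0.86. The 5 negative genes were CDC45, a partner of the MCM helicase (r = -0.81), BRCA1, a DNA repair gene (-0.79), RBL2, the RB relative p130 (-0.75), ORC4, an origin recognition subunit (-0.73), and CCNH, cyclin H (-0.70). CDK7, the kinase that pairs with cyclin H, was positive (0.73).

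Outside all these lists, the 10 rows whose pattern was most like the mean of the 36 genes, by the mean of r within low and within high iCrit over 15 animals, were CCNB3 (0.97), CENPN (0.97), SPAG5 (0.96), CDCA2 (0.96), KIF18B (0.96), DIAPH3 (0.95), CCNF (0.95), ADGRE3 (0.95), MASTL (0.95) and PNP (0.94). ADGRE3 lay between 1 and 6.15 units, close to the lowest value of the table, and PNP between 423 and 1701 units. Of the 50 rows most like the mean, 14 were among the 36 genes themselves, 21 were in the pathway lists and 15 were in neither. Each of the 36 genes is part of that mean, which raises its own r, so their count is only descriptive.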

How the data were processed

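Endometrial mRNA of 15 gilts was analysed, 7 low and 8 high iCrit, grouped by the feeding label; replicate numbers follow the record order and only name an animal. Per the labels' protocols, total RNA (integrity number 7.5 or more) was poly(A)-selected, fragmented and sequenced as paired-end 50 bp reads. The authors deposited 1 normalized signal value per gene and library, on a linear scale with a lowest value of 1; the sources used here do not give their aligner, gene model, scaling or genome build. Coordinates are the deposited ones; 27579 of 28224 rows (97.7%), and 35 of the 36 genes, equal those of Sscrofa11.1 in RefSeq, PLK1 differing. The deposited small-RNA table was not used.

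Depth was estimated from the most frequent low value of each library, 1.07 to 3.07 units, taken as 1 read pair: 84.4 to 88.3% of low values (under 15 units) were whole multiples of it, and 92.4 to 94.8% were whole multiples of 0.5 steps, within 0.05 of a step. The remaining low values were not whole multiples of a step, so no count model was used.

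Rows above 1 in at least 7 libraries were fitted as log2(value + 1) with limma 3.58.1 (R 4.3.3) and its intensity trend, as low minus high iCrit, and p-values were adjusted by Benjamini-Hochberg over the 16819 rows. Fold changes on this scale understate those of low genes. Single genes were also tested by exact permutation over all splits of the animals. Correlations with MKI67 used 100000 permutations, adjusted over the 16818 other rows in place of the planned adjustment over the genes. Python 3.11.15 was used, and of the scripts only the limma fit was tested on simulated data. Alternatives were a pseudocount of 16, no filter, a filter above 50, quantile normalization, median centring, no trend, depth as a covariate, quality weights, each animal left out, and 3 libraries left out.

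The genes, lists, markers and tests were chosen with earlier results of these data known. Genes named in full were at least 1 per role, the 4 with the smallest p in each direction, and the 3 most and 3 least variable; of the pathway lists, 6 G1 genes and the 3 with the smallest p in each direction. Promoter and protein sequences were not used here. The 15 animals are separate gilts, so p-values measure the spread between animals.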

Additional observations from a re-analysis of the deposited data

Results flagged for a closer look

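Dixon's criterion was applied to 60 group values of the 30 genes given by name (7 low or 8 high iCrit animals each). In 6 of them 1 animal was far from the rest. The criterion flags about 1 in 20 groups of normally distributed values. That rate need not hold here, because linear values were used and some genes were picked by p or spread. MCM7 was 2211 units in low iCrit replicate 5, below the next lowest at 2769.7. CCNE2 was 131 units in low iCrit replicate 1, with the next at 68.6. RRM1 was 4147 units in high iCrit replicate 6, with the next at 3089. CDKN1A, which encodes p21, was 2564 units in low iCrit replicate 2 (next 1229.9) and 2996 in high iCrit replicate 8 (next 1462), 2 of the 3 libraries set apart in earlier work. CCND3 was 5349.8 units in high iCrit replicate 2, with the next at 4410.3.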

How the results depend on the processing

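Under every alternative run 0 genes of the set and 0 of all rows passed between the groups, and the lowest adjusted p of a gene of the set lay between 0.309 (quality weights) and 0.893 (without low iCrit replicate 4). MCM7 kept its direction and an unadjusted p under 0.05 in all 25 fits (highest 0.0199), with differences from -0.32 to -0.23 when 1 animal was left out. The count of genes with a lower mean in low iCrit was 27, and with 1 animal left out it lay between 16 (low iCrit replicate 2) and 31 (low iCrit replicate 1); it was 15 without the 3 libraries set apart. The median difference lay between -0.32 and 0.03 when 1 animal was left out. The cause was not tested.

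Of the 30 genes given by name, 18 kept their direction throughout and none of the 30 was called in any fit. Without the 3 libraries set apart the differences became 0.041 for TOP2A, 0.23 for CCNB1, 0.18 for E2F1, 0.072 for RRM2, 0.077 for UBE2C, 0.10 for BUB1B and -0.031 for RRM1. With estimated read pairs as a covariate they became 0.086 for CCNB1, 0.036 for E2F1, 0.015 for CCNE1 and 0.035 for RRM2. With quality weights NUSAP1 became -0.012, and rows at an unadjusted p under 0.05 numbered 1985 in place of 1200. Leaving out 1 animal gave ranges across 0 of -0.41 to 0.037 for MKI67, -0.45 to 0.048 for TOP2A, -0.20 to 0.14 for CCNB1, -0.42 to 0.14 for FOXM1, -0.29 to 0.13 for E2F1, -0.15 to 0.076 for CCNE1, -0.47 to 0.0087 for RRM2, -0.48 to 0.030 for BUB1B, -0.0056 to 0.11 for RRM1, -0.049 to 0.12 for NUSAP1 and -0.34 to 0.057 for CDKN1A. The leave-out counts of the spread were chosen after seeing the data.

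No paired analysis was possible because the labels give each animal its own number and pair none across the groups. Depth was lowest for CDC6, FOXM1 and BUB1, each with 12 estimated read pairs in the library where it had fewest; values of 1 mean a gene at the table's lowest value, not its absence.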

Other observations

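Rows opposite to the mean of the 36 genes were sought only among those with a high median value and a symbol not starting with LOC. The 10 most opposite of these, chosen after their values were seen, were DENND4B, LENG8, AKAP9, ZFP90, DOCK6, USP20, KCTD2, ZRANB1, UNKL and CBX7. Their mean within-group r lay between -0.93 and -0.88 over 15 animals. All 10 were well above the lowest value of the table in every library, which the limit on the median made likely. LENG8 lay between 3895 and 8928 units, AKAP9, a scaffold of the centrosome and Golgi, between 4738 and 9824, and CBX7, a Polycomb protein, between 2065 and 4612. No p-value is given because the rows were picked as the most extreme of those searched.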
